A study of Mus musculus with 9 samples.

Results

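Dead cells are cleared by macrophages through a chain of proteins, and 10 genes of that chain were read here in macrophages of the fetal liver (FL) that carried or lacked a conditional deletion of *Xpr1*, which encodes a phosphate exporter. The genes encode receptors for phosphatidylserine (*Timd4* and *Havcr2*), receptor tyrosine kinases of the TAM family (*Mertk* and *Axl*), secreted bridging molecules (*Gas6*, *Pros1* and *Mfge8*), an integrin pair (*Itgav* and *Itgb5*) and an intracellular engulfment adaptor (*Elmo1*). They were chosen by name, and all 10 had a row among the 13708 genes of the table. F4/80hi CD11blow CD45+ cells were sorted from livers of mouse embryos at E15.5, and bulk RNA-seq gave 5 samples of *Mrc1*Cre *Xpr1*fl/fl and 4 samples of *Xpr1*fl/fl. The controls carried the same loxP-flanked *Xpr1* alleles without Cre. In the Cre samples, Cre was expressed from the *Mrc1* locus, which encodes the mannose receptor CD206, so deletion is directed to differentiated CD206+ macrophages and also to liver sinusoidal endothelial cells, which express that gene. The sort took Tim4hi and Tim4lo cells together, and in these bulk samples fewer cells of a type and less RNA per cell cannot be told apart. The labels do not say whether samples came from separate embryos, so the p-values measure only the spread between these samples, which may be technical.

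A dying cell turns phosphatidylserine to its outer surface, where macrophages recognize it. Tim4, the product of *Timd4*, binds the lipid itself and tethers the corpse, whereas MerTK and Axl read it through Gas6 and protein S, which bind the lipid at one end and the kinase at the other. MFG-E8 does the same for the αvβ5 integrin. Signals from these receptors reach ELMO1, which with a Dock protein activates Rac and drives the actin cup that closes around the corpse. Macrophages of the FL take up the nuclei that maturing red cells expel, which also display phosphatidylserine, and Tim4 is a marker of resident liver macrophages.

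All values are normalized counts, that is, gene counts that had been divided by DESeq2 normalization factors, and the 9 samples totalled 26942921 to 28309443 of them. The fold change is on the scale of log2(normalized count + 1), and a gene was called at an adjusted p under 0.05 (limma, Benjamini-Hochberg over the 13594 genes tested). Names of the table's columns held 3 dates whose meaning the sources used here do not state. Replicate 5 of *Mrc1*Cre *Xpr1*fl/fl shared the earliest date with control replicates 1 to 3, control replicate 4 had the middle date and the other Cre samples the latest. A second fit, called the date fit, took the date as a covariate, and in it the genotype rests on that 1 Cre sample against 3 controls. *Xpr1* itself was at 1074 to 1285 normalized counts in the Cre samples and 1781 to 2239 in the controls (log2 fold change −0.77, adjusted p = 4.13e-05), and *Mrc1* at 5923 to 9095 against 22144 to 28348, so every sample lay on the side of its label. Of 7 lists of cell type markers, the 12 macrophage genes summed to 313550 to 338771 normalized counts in the Cre samples and 277781 to 315980 in the controls, overlapping ranges, with *Csf1r*, the receptor for M-CSF, as the most abundant. None of the 12 was listed at 0. Of the 12, 3 were higher, 2 lower and 7 not called, beside 21.5% higher and 21.6% lower of all genes. Their median log2 fold change was 0.06. *Cd163*, the hemoglobin scavenger receptor and 1 of the 2 lower, fell from 382 ± 145 (SD, n = 4) to 41.2 ± 6.2 (SD, n = 5).

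The 250 bases before the annotated start were read for *Timd4* and *Gas6*, which fell together, and for *Itgav*, which was high in 4 Cre samples and low in the other, on GRCm39. Of the 10 windows, those of *Mertk*, *Pros1* and *Mfge8* held bases of annotated exons and are not shown. Those of *Havcr2*, *Axl* and *Elmo1* held no match to the letters searched and that of *Itgb5* held 2 GC boxes, and they are not shown either. Capitals mark the letters TGCTGA, to which MAF factors bind, in *Timd4* (chr11:46701370-46701619, + strand), where they lie on the opposite strand as TCAGCA, and the interferon-stimulated response element, GAAA repeated after a gap of 2 bases, in *Itgav* (chr2:83554153-83554402, + strand). The *Gas6* window (chr8:13544825-13545074, − strand) held no match.
Timd4: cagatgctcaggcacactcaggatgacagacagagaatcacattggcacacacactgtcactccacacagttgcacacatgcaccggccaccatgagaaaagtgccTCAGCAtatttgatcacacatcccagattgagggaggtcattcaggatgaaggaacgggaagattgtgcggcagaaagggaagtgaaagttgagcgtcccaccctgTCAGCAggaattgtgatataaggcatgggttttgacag
Gas6: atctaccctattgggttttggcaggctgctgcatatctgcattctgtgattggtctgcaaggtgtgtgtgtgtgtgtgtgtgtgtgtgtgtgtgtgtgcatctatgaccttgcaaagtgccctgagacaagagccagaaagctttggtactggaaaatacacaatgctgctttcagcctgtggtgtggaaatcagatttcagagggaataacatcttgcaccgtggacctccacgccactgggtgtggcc
Itgav: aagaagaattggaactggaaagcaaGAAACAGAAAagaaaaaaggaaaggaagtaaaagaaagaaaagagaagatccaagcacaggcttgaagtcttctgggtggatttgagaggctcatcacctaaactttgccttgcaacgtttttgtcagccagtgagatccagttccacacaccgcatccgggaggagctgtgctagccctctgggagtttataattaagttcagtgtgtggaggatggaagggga
Both strands were searched, also for GAGGAAGT (PU.1), CACGTG (an E-box) and GGGCGG (a GC box), and none of these was found in the 3 windows. TGCTGA stood in 13.1% and the interferon-stimulated response element in 3.25% of the 13584 windows of that length, and a match is a description of letters, not a site of binding.

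Of the 10 genes, 8 passed the threshold, 3 higher (*Elmo1*, *Havcr2* and *Itgav*) and 5 lower (*Gas6*, *Pros1*, *Timd4*, *Mfge8* and *Itgb5*), and *Mertk* and *Axl* did not. Over all genes tested 43.1% passed, 21.5% higher and 21.6% lower, which is the background for these counts. The genotypes did not overlap in 5 of the 10 genes (*Timd4*, *Gas6*, *Pros1*, *Mfge8* and *Elmo1*), beside 34.1% of all genes. In the date fit 8.78% of all genes passed, 4.24% higher and 4.54% lower. In that fit *Timd4*, *Gas6* and *Pros1* fell and *Elmo1* rose, and the other 6 did not pass. The median log2 fold change of the 10 genes was −0.15, and that of all genes 0.005.

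**Figure D1:**
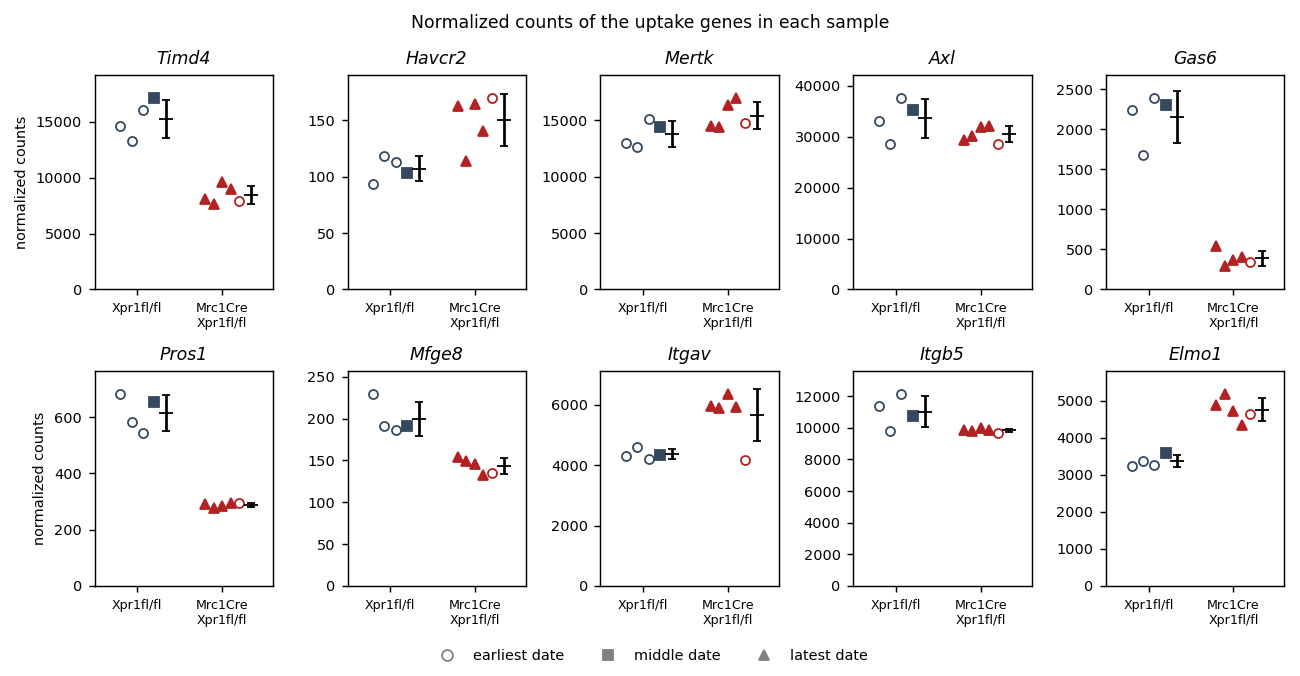
Normalized counts (vertical axis, linear and from 0) of the 10 uptake genes in each sample, with 4 *Xpr1*fl/fl samples in blue on the left and 5 *Mrc1*Cre *Xpr1*fl/fl samples in red on the right of each panel. Symbols give the date in the column name, and the bar and whiskers are the mean ± SD. The highest *Gas6* value of the Cre samples, 547, lies below the lowest control value, 1683, and in *Itgav* the Cre sample of the earliest date, 4165, lies below all 4 controls.

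Among the receptors that bind phosphatidylserine directly, *Timd4* was one of the most abundant genes of the group and *Havcr2* the least. *Timd4* (ENSMUSG00000055546, chr11:46701620-46735177) stood at 8115, 7640, 9642, 9008 and 7914 normalized counts in Cre replicates 1 to 5. It stood at 14657, 13251, 16045 and 17179 in control replicates 1 to 4. Every Cre sample lay below every control, and the Cre mean, 8464 ± 835 (SD, n = 5), was 55.4% of the control mean, 15283 ± 1703 (SD, n = 4). The log2 fold change was −0.85 (SE 0.087, limma adjusted p = 4.23e-05) and −0.88 in the date fit (limma adjusted p = 0.00591). *Havcr2* (ENSMUSG00000020399, chr11:46345673-46374149) encodes Tim-3, best known as an inhibitory receptor of T cells and also a receptor for phosphatidylserine on phagocytes. It stood at 162, 114, 164, 140.4 and 170.1 normalized counts in the Cre samples and 93.6, 119, 113 and 103 in the controls. Cre replicate 2 lay inside the control range and the other 4 above it. This was a log2 fold change of 0.48 (SE 0.147, limma adjusted p = 0.0219), and in the date fit it was 0.65 and did not pass (limma adjusted p = 0.154). The call for *Havcr2* was also lost without Cre replicate 1 (limma adjusted p = 0.051), Cre replicate 3 (0.0514) or control replicate 1 (0.0605).

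The TAM kinases did not pass the test. *Mertk* (ENSMUSG00000014361, chr2:128540729-128645080), the kinase through which macrophages engulf apoptotic cells, stood at 14512, 14372, 16356, 16997 and 14715 normalized counts in the Cre samples. The controls were at 12974, 12662, 15141 and 14352. The 3 lowest values were all controls and the 2 highest both Cre samples, with overlap between. On the log2 scale the difference was 0.16 with a 95% interval of 0.002 to 0.32 (limma adjusted p = 0.0944), and 0.12 in the date fit (limma adjusted p = 0.596). *Axl* (ENSMUSG00000002602, chr7:25456535-25488329), the kinase that binds Gas6 with the highest affinity, stood at 29299, 30184, 31996, 32160 and 28655 normalized counts in the Cre samples and 33102, 28496, 37712 and 35173 in the controls. Control replicate 2 was the lowest of all 9 samples and the other 3 controls were the highest. On the log2 scale the difference was −0.14 with a 95% interval of −0.31 to 0.04 (limma adjusted p = 0.184), and without control replicate 2 it was −0.21 and passed (limma adjusted p = 0.0242). The ratio of *Axl* to *Mertk* within a sample does not depend on the scaling between samples. On the log2 scale it was 0.92 to 1.07 in the Cre samples and 1.17 to 1.35 in the controls, so the ranges were apart, with means that differed by −0.30. The ratio was not tested, and the pair was chosen with earlier results of these data known. *Tyro3*, the third kinase of the family, was near the lower limit of the table, at 8.2 to 23.6 normalized counts in the Cre samples and 6.1 to 11.8 in the controls (limma adjusted p = 0.057). *Tyro3* was named after its values were seen.

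The secreted bridging molecules were all lower, in the order *Gas6*, *Pros1*, *Mfge8* by size of the difference. *Gas6* (ENSMUSG00000031451, chr8:13515371-13544824, − strand) encodes the vitamin K-dependent ligand of all TAM kinases. It stood at 547, 297, 373, 401 and 341 normalized counts in the Cre samples and 2243, 1683, 2399 and 2309 in the controls. The groups were far apart, with a Cre mean of 392 ± 95 (SD, n = 5) at 18.2% of the control mean of 2159 ± 324 (SD, n = 4). For *Gas6* the log2 fold change was −2.48 (SE 0.161, 95% interval −2.83 to −2.12, limma adjusted p = 4.66e-06), and −2.61 in the date fit (limma adjusted p = 0.00138). *Pros1* (ENSMUSG00000022912, chr16:62674275-62749710) encodes protein S, an anticoagulant made largely by the liver that also binds MerTK and Tyro3. It stood at 291, 277, 286, 293 and 293 normalized counts in the Cre samples and 682, 581, 545 and 656 in the controls. The Cre samples lay between 276.6 and 293.2 (288 ± 7.0, SD, n = 5), and every one was below the lowest control. The log2 fold change was −1.09 (SE 0.084, limma adjusted p = 9.23e-06), and −1.03 in the date fit (limma adjusted p = 0.0052). *Mfge8* (ENSMUSG00000030605, chr7:78783515-78798825, − strand), the bridge from phosphatidylserine to αv integrins, stood at 155, 149, 146, 133 and 135 normalized counts in the Cre samples. The controls were at 229.6, 191, 187 and 191. The groups did not overlap, and control replicate 1 stood above the other controls. *Mfge8* had a log2 fold change of −0.47 (SE 0.109, limma adjusted p = 0.00523), and in the date fit it was −0.57 and did not pass (limma adjusted p = 0.108).

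*Gas6* and *Pros1* fell by unequal amounts. The log2 ratio of *Gas6* to *Pros1* was 0.91, 0.10, 0.39, 0.45 and 0.22 in the Cre samples and 1.72, 1.53, 2.14 and 1.82 in the controls. Every Cre sample was below every control, and the means differed by −1.39. This is a description with no test.

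Genes of other cell types moved with genotype in the same samples, and the bridging molecules are also made by such cells in a liver. The 12 stellate and mesenchymal markers summed to 704 to 1276 normalized counts in the Cre samples and 2356 to 6260 in the controls, or 23.5% of control. Of them 10 fell and 4 fell in the date fit, and none was listed at 0. The 12 hepatoblast and hepatocyte markers summed to 35471 to 45506 against 59677 to 102973, or 53.0% of control, and all 12 fell (2 in the date fit). The 12 endothelial markers summed to 2249 to 2656 against 2941 to 4865, or 69.9% of control, and 10 fell (1 in the date fit). The 16 erythroid markers, all of which fell (5 in the date fit), summed to 93554 to 310317 against 409147 to 654637, or 29.6% of control. The 10 megakaryocyte and platelet markers summed to 39.4% of control, 782 to 1253 against 2406 to 2976, with 6 lower (1 in the date fit). Of these 10, 1 was listed at 0 in at least 1 sample, alone among all these lists. The 12 monocyte and granulocyte markers summed to 5697 to 15040 against 9830 to 48105 with overlap, or 30.9% of control, and 7 fell (4 in the date fit). In the date fit the median log2 fold change was −0.19 over the megakaryocyte and platelet markers and −0.77 over the monocyte and granulocyte markers. Over all genes tested 21.6% fell, and 4.54% in the date fit, which is the background for the counts of each list. The most abundant genes of the lists were *Pecam1*, *Trf*, *Col3a1*, *Hba-a1*, whose reads may be shared with its near-identical copy *Hba-a2*, *Pf4* and *S100a9*. *Pecam1*, also listed among the brakes on uptake read below, was the largest part of the endothelial sum. It was at 1540 ± 150 in the Cre samples and 1976 ± 311 in the controls (SD), or −0.35 on the log2 scale. The median log2 fold change was −1.40 over the endothelial genes and −1.45 over the stellate and mesenchymal genes. The part of these cell types in the differences of *Gas6*, *Pros1*, *Mfge8* and *Timd4* was not tested.

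**Figure D2:**
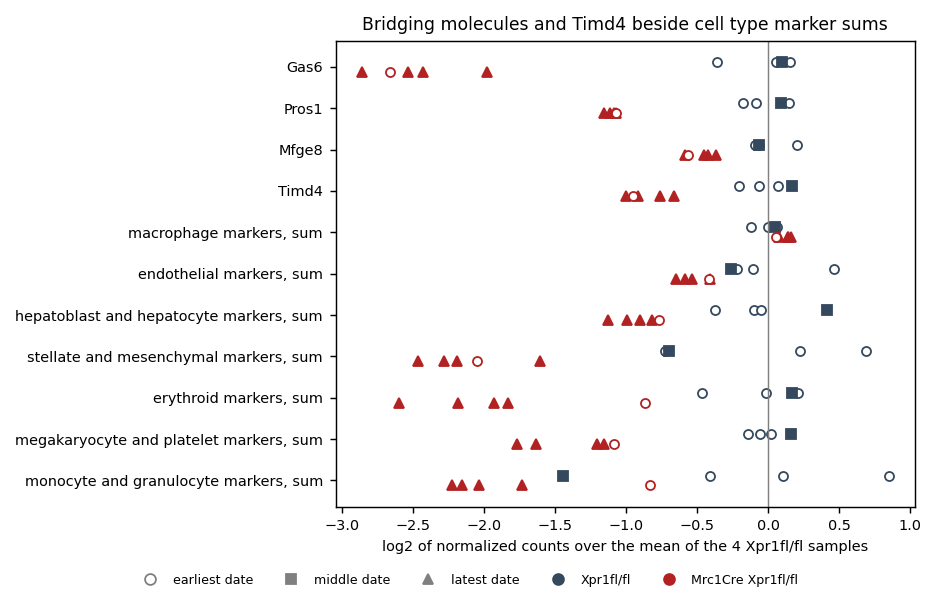
Each point is 1 sample, as log2 of its normalized counts over the mean of the 4 *Xpr1*fl/fl samples, for 4 uptake genes that fell and for the summed markers of each of 7 cell types. *Gas6* (18.2% of control) and the stellate and mesenchymal sum (23.5%) have the lowest Cre means, and the macrophage sum (108.4%) lies around 0.

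The integrin chains were called in opposite directions. *Itgav* (ENSMUSG00000027087, chr2:83554403-83637260) encodes the αv chain that pairs with several β chains. It stood at 5976, 5908, 6363, 5923 and 4165 normalized counts in the Cre samples and 4314, 4589, 4202 and 4346 in the controls. Cre replicates 1 to 4, of the latest date, were above every control, and Cre replicate 5, of the earliest date, was below every control. Over all samples *Itgav* had a log2 fold change of 0.36 (SE 0.105, limma adjusted p = 0.0165), and in the date fit it was −0.07 with a 95% interval of −0.25 to 0.12 (limma adjusted p = 0.649). Without Cre replicate 5 it was 0.47 (limma adjusted p = 3.79e-05). That replicate also had the highest erythroid and monocyte and granulocyte marker sums of the Cre samples, 310317 and 15040, and their part in its *Itgav* value was not tested. *Itgb5* (ENSMUSG00000022817, chr16:33649988-33771137), the β5 chain, stood at 9868, 9780, 9994, 9892 and 9690.1 normalized counts in the Cre samples and 11360, 9829, 12148 and 10729 in the controls. Control replicate 2 lay among the Cre samples, whose SD was 115 around 9845, and the other controls lay above them. *Itgb5* had a log2 fold change of −0.16 (SE 0.059, limma adjusted p = 0.0481), just inside the threshold, with scaling to macrophage markers 0.06 and not called, and in the date fit −0.19 (limma adjusted p = 0.286). The call for *Itgb5* was lost in 8 of the 9 fits that each left out 1 sample, all but the one without control replicate 2. With scaling to the macrophage markers without *Cd163*, *Itgb5* was −0.21 and passed (limma adjusted p = 0.00932). Within a sample the log2 ratio of *Itgav* to *Itgb5* was −1.22 to −0.65 in the Cre samples and −1.53 to −1.10 in the controls, which overlapped.

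*Elmo1* (ENSMUSG00000041112, chr13:20274428-20792523) encodes the adaptor through which several of these receptors reach Rac, and it rose. It stood at 4884, 5177, 4729, 4344 and 4638 normalized counts in the Cre samples and 3227, 3369, 3254 and 3596 in the controls. All Cre samples were above all controls, with a mean of 4754 ± 307 (SD, n = 5) at 141.4% of the control mean of 3362 ± 168 (SD, n = 4). The log2 fold change was 0.50 (SE 0.058, limma adjusted p = 8.36e-05), and it was 0.50 in the date fit too (limma adjusted p = 0.0153).

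**Figure D3:**
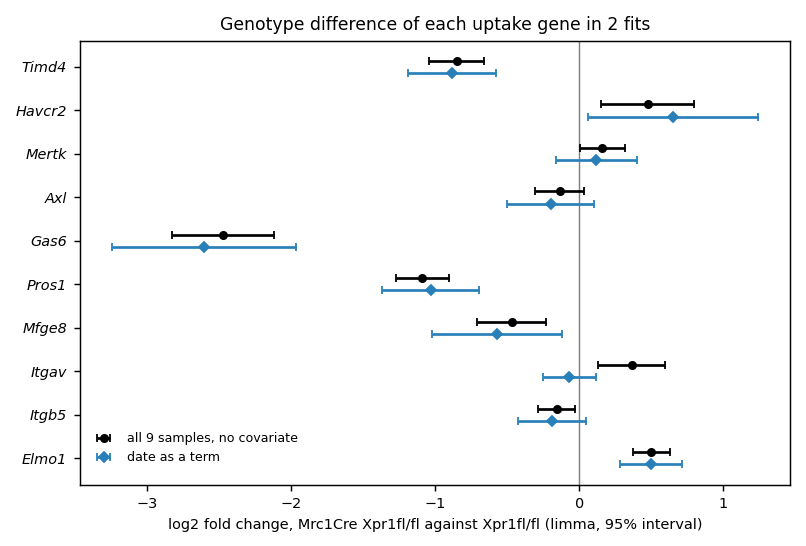
Difference of the Cre samples from the controls (log2 fold change) for each uptake gene, with limma's 95% interval, x. *Gas6* lies farthest below 0, at −2.48 and −2.61, and *Itgav* is at 0.36 in the first fit and −0.07 in the second.

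Levels of different genes were compared per kilobase of the annotated transcript. In the controls *Axl* (7238 ± 840 normalized counts per kilobase, SD) and *Timd4* (6953 ± 775) were the highest and overlapped, followed by *Itgb5* (3309 ± 295) and *Mertk* (2960.1 ± 250.4), which overlapped too. *Gas6* (748 ± 112), *Itgav* (590.2 ± 22.1) and *Elmo1* (577 ± 28.9) came next, and each overlapped its neighbour. *Pros1* (175 ± 18.1), *Mfge8* (98.2 ± 9.91) and *Havcr2* (37.9 ± 3.92) were lowest, each below the previous without overlap. In the Cre samples *Timd4* was at 3851 ± 380, near *Mertk* at 3306 ± 258, and *Axl* alone was above both at 6557 ± 339. *Gas6* moved from the fifth place of the 10 to the seventh, at 136 ± 32.9, below *Elmo1* and *Itgav*.

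The other genes of the pathway were read from a list of 111 grouped in 7 roles, of which 104 had a row and were tested (*Havcr1*, *Adgrb1*, *Megf10*, *Mbl2*, *Ptx3*, *Gulp1* and *Rab17* had none). Of the 104, 37 were higher, 18 lower and 49 did not pass, or 52.9% called beside 43.1% of all genes, with a median log2 fold change of 0.07. The directions depend on the scaling, with 29 higher and 24 lower after scaling to the 75th percentile. After scaling to macrophage markers 62 were higher and 11 lower. With those markers without *Cd163*, an alternative chosen after seeing the data, 30 were higher and 23 lower. In the date fit 10 were higher and 4 lower, beside 4.24% and 4.54% of all genes. Among 21 other receptors for dead cells 9 were higher and 6 lower (4 and 2 in the date fit), or 71.4% called. Over all genes 21.5% were higher and 21.6% lower. *Cd300lf*, a receptor for phosphatidylserine and ceramide, rose from 1109 ± 46.7 (SD, n = 4) to 2152 ± 209 (SD, n = 5), or 0.95 on the log2 scale (limma adjusted p = 9.16e-06; date fit 1.14, adjusted p = 0.000942). *Itgb3*, a further β chain that pairs with αv, was lower at 143 ± 69.4 against 308 ± 88.0 normalized counts with overlap (limma adjusted p = 0.0152, date fit 0.651). Megakaryocyte and platelet markers summed to 39.4% of control in these samples, and their part in the *Itgb3* value was not tested. *Stab1* and *Stab2*, scavenger receptors that bind phosphatidylserine and are also made by sinusoidal endothelium, were named after their values were seen, and had log2 fold changes of −1.01 (limma adjusted p = 0.000366; date fit 0.0334) and −0.78 (limma adjusted p = 0.000667; date fit 0.128, not called). Of 11 other bridging molecules and opsonins, 2 were higher and 3 lower (0 and 1 in the date fit), or 45.5% called beside 43.1% of all genes. *C1qa*, a chain of the complement opsonin C1q, fell from 34370.4 ± 4363 to 18833 ± 1235 normalized counts (log2 fold change −0.86, limma adjusted p = 4.11e-05; date fit −0.77, adjusted p = 0.0153). The other chains were named after their values were seen. *C1qc* was lower at −0.41 (limma adjusted p = 0.00274; date fit 0.203, not called), and *C1qb* was at −0.11 and did not pass (limma adjusted p = 0.174). *Calr*, calreticulin, which can act as an eat-me signal and is a chaperone in every cell, rose by 0.47 on the log2 scale (limma adjusted p = 0.000228), and did not pass in the date fit (limma adjusted p = 0.0527).

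A further 9 genes were listed as do-not-eat-me signals and brakes, of which 4 were higher and 2 lower, beside 21.5% and 21.6% of all genes (3 and 1 in the date fit). *Adam17*, a protease that sheds receptors from the cell surface, and *Socs1*, an intracellular inhibitor of cytokine signalling, were among the 4, and neither is itself a signal or receptor that holds uptake back. Both were named after their values were seen. *Pilra*, an inhibitory receptor, was higher by 0.65 on the log2 scale (limma adjusted p = 2.76e-05; date fit 0.84, adjusted p = 0.0012). *Cd24a*, a do-not-eat-me signal that is also abundant on erythroid precursors, fell from 9435 ± 1372 to 2637 ± 1004 normalized counts (log2 fold change −1.91, limma adjusted p = 8.72e-05), and −1.10 in the date fit (limma adjusted p = 0.0323). Erythroid markers fell in these libraries, and their part in the *Cd24a* value was not tested. Of 20 genes of the engulfment machinery beside *Elmo1*, 9 were higher and 1 lower (2 and 0 in the date fit). *Dock5*, a partner of ELMO proteins in Rac activation, rose from 547 ± 82.7 (SD, n = 4) to 1099 ± 67.0 (SD, n = 5), or 1.01 on the log2 scale (limma adjusted p = 2.99e-05; date fit 0.96, adjusted p = 0.00938). *Elmo2* and *Dock2*, a further adaptor and a further Dock protein, were named after their values were seen. *Elmo2* was higher by 0.39 on the log2 scale (limma adjusted p = 0.000241; date fit 0.36, adjusted p = 0.0382). *Dock2* was higher by 0.44 (limma adjusted p = 0.00117), but at 0.23 it was not called in the date fit (limma adjusted p = 0.184). Of the 25 genes of phagosome maturation, 6 were higher and 1 lower, or 28% beside 43.1% of all genes, and none passed in the limma date fit (1 at an unadjusted p under 0.05). They include *Mon1b* (log2 fold change 0.36, limma adjusted p = 0.000339), which activates Rab7, *Uvrag*, a regulator of endosome and autophagosome traffic (0.48, limma adjusted p = 0.00196) and *Abca7*, a lipid transporter (−0.23, limma adjusted p = 0.0315).

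Receptors for find-me signals, which draw phagocytes to a dying cell, were 4 higher and 2 lower of 8, beside 43.1% of all genes called in either direction, and 0 of the 8 passed in the limma date fit (4 at an unadjusted p under 0.05), where 8.78% of all genes did. *P2ry2*, a receptor for released nucleotides, was at 200 ± 24.8 (SD, n = 5) against 99.9 ± 23.7 (SD, n = 4) normalized counts (log2 fold change 1.02, limma adjusted p = 0.000908; date fit adjusted p = 0.0648). *P2ry12*, another nucleotide receptor, was lower by a difference of −0.34 on the log2 scale (limma adjusted p = 0.0137; date fit adjusted p = 0.0816). Of 10 nuclear receptors and regulators tied to uptake genes, 3 were higher and 3 lower, beside the same 43.1%, and 1 was higher and 0 lower in the date fit. *Nr1h3*, LXRα, which senses sterols after uptake and is known to drive *Mertk*, rose from 7872 ± 391 to 10161 ± 406 normalized counts (log2 fold change 0.37, limma adjusted p = 0.000219; date fit 0.44, adjusted p = 0.0154). *Nr4a1*, an orphan nuclear receptor that restrains inflammation, was at 0.77 on the log2 scale of fold change (limma adjusted p = 0.000286) and *Klf2*, a zinc finger factor that restrains macrophage activation, at −0.58 (limma adjusted p = 0.00148), and neither passed in the date fit (0.11 and 0.138).

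**Figure D4:**
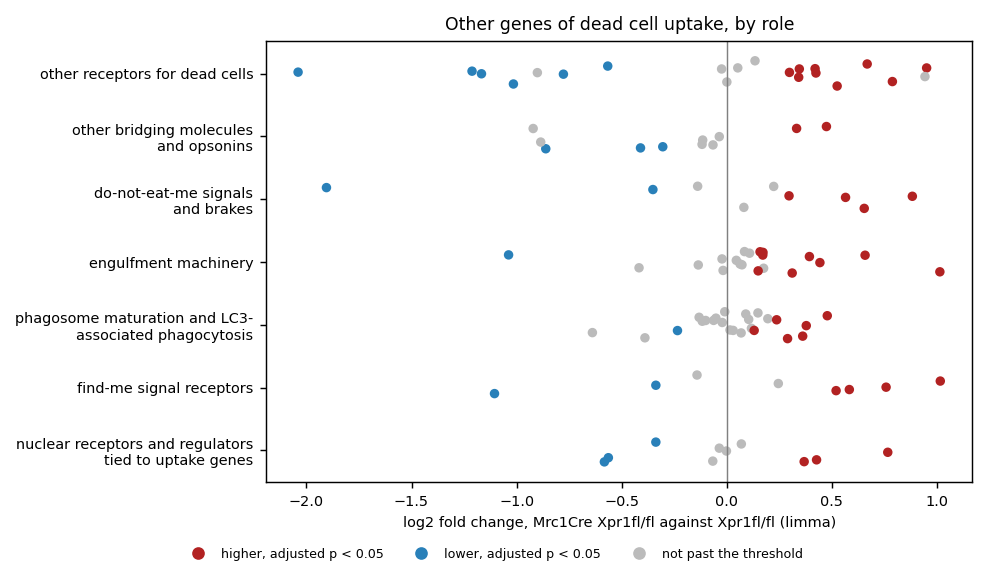
Difference of the Cre samples from the controls (log2 fold change, limma, all 9 samples) for the 104 other uptake genes, 1 point per gene, in 7 rows by role, with red for genes higher and blue for genes lower at an adjusted p under 0.05. Of the 20 points of the engulfment machinery 9 are red and 1 is blue, whereas of the phagosome genes 18 of 25 are grey. Over all genes tested 21.5% were higher and 21.6% lower.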

How the data were processed

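The sorted E15.5 macrophages gave 9 libraries, 5 of *Mrc1*Cre *Xpr1*fl/fl and 4 of the *Xpr1*fl/fl controls, from 45 ng of RNA each. According to the paper, the authors quantified reads with salmon on GRCm39, imported them with tximport and normalized them with DESeq2, and the submitters' processing notes list FastQC and mm39. Versions and the filter that left genes of low mean out of the table are not given in the sources used here. Each gene has a deposited signal, its counts divided by the authors' normalization factors. Absolute depth is unknown. At the best-fitting step of each sample, 26.0 to 49.7% of values under 10 lay within 0.05 steps of a whole multiple. Chance gives 10% for a fixed step and more for a step chosen as best. Whole reads were thus not recovered and no count test was run. All columns matched a sample (0 left over).

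Symbols (13698 of 13708 genes), coordinates and transcripts came from GENCODE mouse release 39. Genes that reached 10 normalized counts in 4 or more samples were tested on log2(value + 1) with limma 3.58.1 (trended variances, R 4.3.3), Benjamini-Hochberg adjusted over 13594 genes. A simulation of this comparison on 13708 genes recovered 186 of 200 changed genes with 9 false calls. The changed genes were given log2 differences of 1 or 2 in either direction, with noise independent between samples and no date effect. It does not bear on smaller differences, on changes in a large share of genes or on the date. Tables and windows were made with Python 3.11.15, numpy 2.4.6 and pandas 2.3.3.

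The genes, lists and tests were chosen with earlier results of these data known. All 10 genes are named. Of each role of the wider list, the called genes with the largest rise and the largest fall at a mean of at least 100 normalized counts and the gene with the lowest adjusted p are named, with the most abundant gene of each marker list, *Xpr1* and *Mrc1*. Alternatives were another pseudocount, filter, scaling or limma setting, the replicate block, the date as a term and each sample left out.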

Additional observations from a re-analysis of the deposited data

Results flagged for a closer look

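In 66 groups of 4 or 5 samples, Dixon's test set 1 sample apart in 4, and chance gives about 1 in 20 groups, or 3.3 of 66. For *Itgav* it was Cre replicate 5, at 4165.4 normalized counts beside 5908.1 to 6363.4 in the other Cre samples. The same sample was set apart in the monocyte and granulocyte marker sum, at 15040.5 beside 5696.9 to 8045.1. For *Mfge8* it was control replicate 1, at 229.6 beside 186.8 to 190.9 in the other controls. For *C1qa* it was control replicate 2, at 27854.3 beside 36135.8 to 37095.7.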

How the results depend on the processing

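*Timd4*, *Gas6*, *Pros1*, *Elmo1* and *Xpr1* kept direction and call in all 23 alternatives, with log2 fold changes of −0.93 to −0.64, −2.61 to −2.26, −1.17 to −0.88, 0.38 to 0.71 and −0.85 to −0.55. Adding the date as a term changed the counts most. Genotype then rests on 1 Cre sample against 3 controls. The standard error grew in all the uptake genes but *Itgav* (0.147 to 0.264 in *Havcr2*, 0.105 to 0.082 in *Itgav*). Calls lost through this loss of power cannot be told apart from an effect of the date. With it as a term 1194 genes passed in place of 5865, with 4 of the 10 uptake genes and 14 of the wider list. With the 4 samples of the earliest date alone, an alternative chosen after seeing the data that leaves 1 Cre sample assumed to vary like the controls, 647 genes passed, with 4 of the 10 and 9 of the wider list. *Itgav* was −0.07 (−0.068) in both. Only the earliest date holds both genotypes, so both fits give the same estimate for every gene by construction. The replicate block and the fit without Cre replicate 5 also share their estimates, so the 23 alternatives are not all separate checks. Leaving out 1 sample at a time gave 4815 to 6081 genes, 6 to 9 of the 10 and 47 to 57 of the wider list.

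Scaling moved the directions. Higher calls made up 49.9% of all calls, but 35.0% with scaling to the 75th percentile (median of all genes −0.074), 77.0% with scaling to macrophage markers (median 0.22) and 37.5% with those markers without *Cd163* (median −0.044, chosen after seeing the data), and 36.6% on the earliest date alone. With scaling to macrophage markers *Axl* was 0.079 and *Itgb5* 0.057, opposite to the values reported, and *Mertk* was 0.38 and passed (limma adjusted p = 0.000902). With those markers without *Cd163*, *Itgb5* was −0.21 and passed (limma adjusted p = 0.00932). *Mertk* was then 0.11 and did not pass (limma adjusted p = 0.248). Under the 75th percentile *Axl* passed at −0.22 (limma adjusted p = 0.0377), as it did at −0.19 (−0.185) with the macrophage markers without *Cd163*. *Mfge8* did not pass with quantile normalization (−0.21) or macrophage scaling (−0.26), nor *Itgav* with quantile normalization (0.25). With the macrophage markers without *Cd163*, *Mfge8* passed at −0.52 (limma adjusted p = 0.00449). *Havcr2* lost its call in 8 of the 23 alternatives, and *Itgb5* lost its own in 13 with the direction kept and in 1 more, scaling to macrophage markers, with the opposite sign. The causes were not tested.

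Replicate numbers are shared between genotypes, but same-numbered samples did not deviate together (correlations of −0.035, 0.147, −0.003 and −0.024, and 3 of 8 samples correlated best with their own number). With the replicate number as a block, which leaves Cre replicate 5 out, 6226 genes and 7 of the 10 passed. *Mertk* gained a call and *Havcr2* and *Itgb5* lost theirs. Depth is unknown, which limits statements on genes near 10 normalized counts such as *Tyro3*.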

Other observations

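Adding the date as a term turned the sign of few called genes. The samples that set the genotype difference in the date fit are also among the 9 samples that gave the calls. Agreement in sign is thus partly built in, and these counts are no separate check on the date. Of the 5865 genes called over all 9 samples, 81 (1.38%) had the opposite sign with the date as a term, and of the 55 called genes of the wider uptake list 0 did. *Itgav* was the 1 of the 8 called uptake genes that did, from 0.36 to −0.07 on the log2 scale.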
